A study of Homo sapiens with 45 samples.

Results

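JAK kinases, STAT transcription factors and SOCS proteins were followed at the RNA level in HCT116-VR, a colorectal cancer cell line selected for resistance to the histone deacetylase inhibitor vorinostat. The 9 genes described are JAK1, JAK2, TYK2, STAT2, STAT3, STAT5B, STAT6, SOCS2 and SOCS3. They were chosen by name from the 15698 genes of the deposited expression table, and all 9 were measured. The 45 RNA-seq libraries comprise 15 conditions with 3 libraries each, which the study describes as independent biological experiments in a single cell line. Cells were mock transfected (lipid alone) or received a pool of siRNAs at 40 nM against BEGAIN, CCNK, CDK10, DPPA5, EIF3L, GLI1, JAK2, NFYA, POLR2D, PSMD13, RGS18, SAP130, TGM5 or TOX4, and RNA was harvested 48 h later. No drug is named for these libraries, so all groups share the resistant background.

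JAK kinases are bound to the inner side of cytokine receptors. When a cytokine joins receptor chains, the kinases phosphorylate the receptor and then STAT proteins, which pair, enter the nucleus and switch on genes. SOCS genes are among those switched on, and their proteins act back on receptors and kinases to shut the signal off.

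Depth ran from 7569592 to 21149597 reads per library (median 11551126). Levels are given as log2 CPM (reads of a gene scaled to a fixed library total), and 3 reads corresponded to a log2 level between -2.50 and -1.07 depending on the library. Of 7 markers of intestinal epithelium, 6 were listed, with EPCAM at a median log2 level of 8.77 and KRT8 at 10.3. Of 6 markers of immune, stromal and endothelial cells, only COL1A1 was listed, at a median log2 level of 3.64 and between 33 and 314 reads. PTPRC, CD3E, CD14, COL1A2 and PECAM1 had no row.

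The condition names listed for the libraries did not follow the likeness of the libraries or the siRNA targets. Over 2186 variable genes, with the 9 genes and all siRNA targets left out, each of the 45 libraries had 2 nearest libraries that were also nearest to each other, which gave 15 sets of 3. All 15 sets stood in 3 adjacent columns of the deposited table, and in all 15 the 3 libraries were listed under 3 different conditions. JAK2 itself was lowest in libraries listed as siCCNK, siBEGAIN and siNFYA. The study reports that triplicates of each siRNA clustered together. It also reports JAK2 among the most reduced genes in its siJAK2 samples. The listed names show neither. No library was therefore given a condition from its values or its place. Levels are described over all 45 libraries, which are named by their column, and tests were made only by the listed names.

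Abundance differed widely among the 9 genes. Levels were divided by the length of all exons of a gene, merged over its transcripts. This length ran from 2734 bases for SOCS3 to 13174 for JAK1, and the order below depends on it. Per kilobase of exon, STAT3 had a median log2 CPM of 3.20 and JAK1 of 3.18, and the pair could not be ordered, since STAT3 was the higher in 19 of 45 libraries. SOCS3 followed at 2.64 and lay below JAK1 in 44 of 45 libraries. TYK2 stood at 2.19, STAT6 at 1.96 and SOCS2 at 1.36, each below the gene before it in 33 to 35 of 45 libraries. STAT2 at 0.33 lay below SOCS2 in 41 libraries, and JAK2 at 0.24 was below STAT2 in only 28. STAT5B, at -3.13, was the lowest of the 9 and lay under JAK2 in 42 of 45 libraries.

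**Figure D1:**
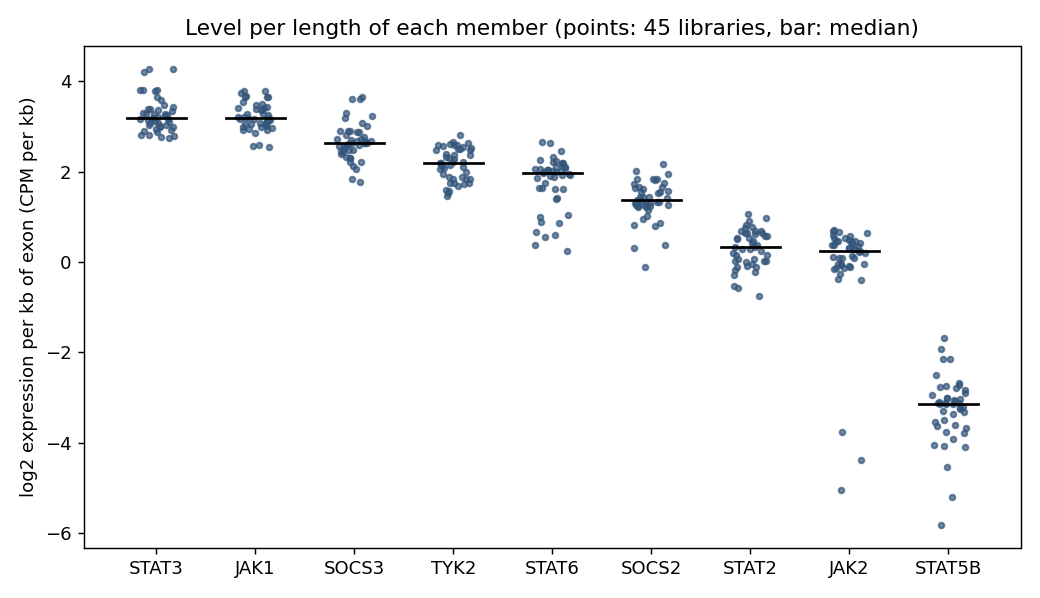
The level of each of the 9 genes is plotted as log2 CPM per kilobase of exon (vertical axis), with 1 point per library and a bar at the median of 45 libraries. STAT3 and JAK1 overlap at the top, JAK2 has 3 points far below its other 42, and STAT5B lies lowest.

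Among the kinases, JAK2 varied most over the 45 libraries, and 3 very low libraries set that spread. JAK2 (ENSG00000096968), which serves receptors for erythropoietin, growth hormone and several interleukins, lies on the + strand of chromosome 9 from 4984390 to 5129948 (GRCh37). At its median over the 45 libraries the log2 level was 3.22 (110 reads), and it reached 3.69 at most. The 3 libraries in columns 19, 20 and 21 held 3, 7 and 4 JAK2 reads, at log2 levels of -2.05, -0.79 and -1.39. The next lowest library stood at 2.60, so these 3 did not overlap with the remaining 42, and the 3 reads in column 19 are at the limit that a count of 0 would allow. In bulk RNA, fewer expressing cells and less RNA per cell cannot be told apart. The highest 3 JAK2 values, 3.69, 3.67 and 3.66, fell in columns 4, 5 and 6, but the step down to the fourth was only 0.042. The siRNA target CCNK had its 3 lowest values in those same columns. The standard deviation of JAK2 over the libraries, 1.21, exceeded that of 97.2% of all genes, and it includes the 3 libraries low in JAK2. JAK2 is itself an siRNA target in this series, and the other 42 libraries lay between 2.60 and 3.69.

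JAK1 (ENSG00000162434; chromosome 1, 65298906 to 65533437, - strand) is the kinase shared by interferon, gp130 and common gamma chain receptors. Its log2 level ran from 6.27 through a median of 6.90 to 7.51, or 740 to 3021 reads. The 3 lowest values, 6.27, 6.28 and 6.31, were those of columns 28, 29 and 30, and the next library stood at 6.58. Those 3 libraries form a set of mutual nearest libraries, and they are also the 3 lowest in POLR2D, a subunit of RNA polymerase II, with 102, 87 and 147 POLR2D reads against a median of 1001. The highest 3 JAK1 libraries (columns 10, 11 and 38) came from more than 1 set.

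TYK2 (ENSG00000105397; chromosome 19, 10461209 to 10491284, - strand) works beside JAK1 at type I interferon receptors. Its log2 level spanned 4.56 to 5.91 with a median of 5.28, over 248 to 1186 reads. Neither its 3 highest libraries (columns 3, 4 and 5) nor its 3 lowest (columns 31, 37 and 39) formed a set of mutual nearest libraries. Columns 4 and 5 shared a set, as did columns 37 and 39. No gap larger than 0.16 divided its values.

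**Figure D2:**
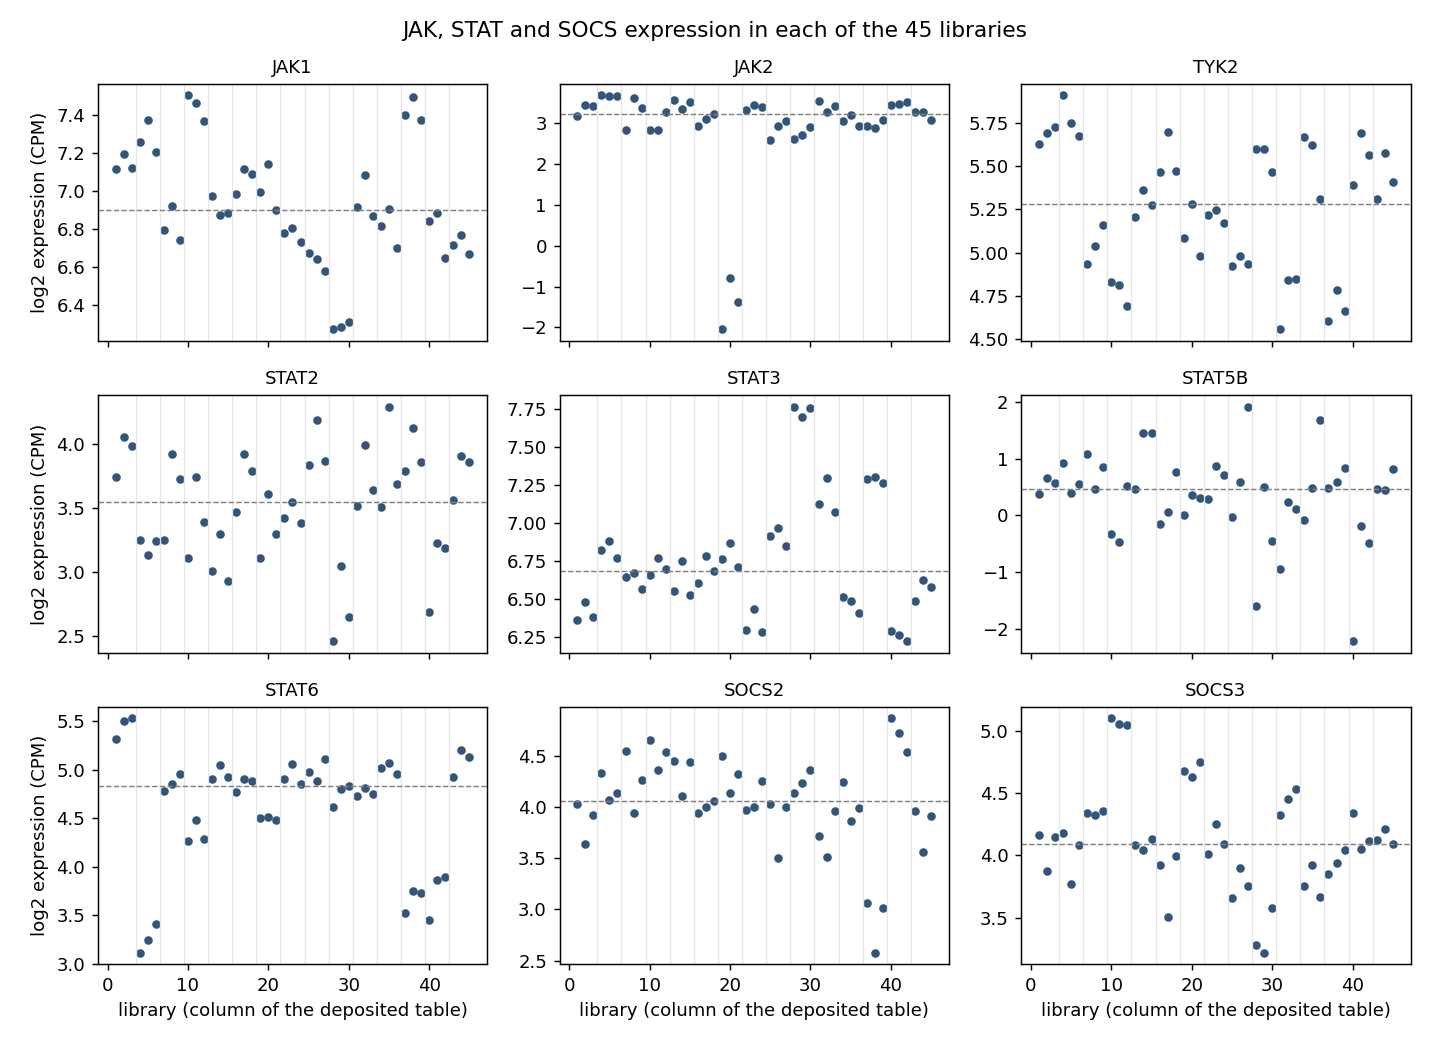
The log2 CPM (vertical axes, scaled separately for each gene) of each gene is plotted against the column of the library in the deposited table (horizontal axes), with 1 point per library, a dashed line at the median and grey lines between each 3 columns. The 3 low JAK2 libraries, the 3 high STAT3 libraries and the 9 low STAT6 libraries stand apart from the rest.

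STAT3 was the most abundant STAT. STAT3 (ENSG00000168610; chromosome 17, 40465342 to 40540558, - strand) carries signals of the IL-6 family. The lowest log2 level was 6.22, the median 6.68 and the highest 7.76. Columns 28, 29 and 30 held the 3 highest values at 7.76, 7.70 and 7.76, with 2944, 1970 and 2809 reads, and the next library reached 7.30. These are the same 3 libraries in which JAK1 and POLR2D were lowest, so the kinase and the STAT stood at opposite ends of their ranges there. The 3 libraries of columns 37, 38 and 39 came next to them at 7.29, 7.30 and 7.26, level with column 32 at 7.30. Within sets of mutual nearest libraries the median range of STAT3 was 0.12. Nearest libraries differed in STAT3 by a median of 0.07, against 0.35 for other pairs.

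STAT6 (ENSG00000166888; chromosome 12, 57489191 to 57525922, - strand), the factor used by IL-4 and IL-13, covered the broadest range of the well-counted STATs, from 3.12 through a median of 4.83 to 5.53 on the log2 scale. Columns 4, 5 and 6 were lowest at 3.12, 3.25 and 3.42, or 171, 119 and 141 reads. They are also the 3 libraries lowest in CCNK, the cyclin partner of CDK12 and CDK13, which had 43, 42 and 44 reads there against a median of 1021. A further 6 libraries stood apart from the other 36. Columns 37, 38 and 39 had STAT6 at 3.53, 3.75 and 3.73, and columns 40, 41 and 42 had it at 3.46, 3.87 and 3.90, while the 36 others began at 4.26. The highest 3 values, 5.32, 5.50 and 5.53, fell in columns 1, 2 and 3, which are mutual nearest libraries. Columns 1 and 2 were among the 3 lowest in BEGAIN, with 4 and 5 reads, and column 3 held 10, against a median of 22, but column 37 was lower still at a log2 level of -1.66 (3 reads).

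STAT2 (ENSG00000170581; chromosome 12, 56735381 to 56753987, - strand), part of the interferon-activated complex ISGF3, had a log2 level of 2.46 at its lowest, 3.55 at its median and 4.29 at its highest, over 74 to 290 reads. Its 3 lowest libraries were columns 28, 30 and 40, the first 2 from the set in which JAK1 was lowest, and its 3 highest came from 3 sets. Libraries nearest to each other differed in STAT2 by a median of 0.29, against 0.43 for other pairs, the highest figure for nearest libraries among the 9 after STAT5B.

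STAT5B (ENSG00000173757; chromosome 17, 40351194 to 40440651, - strand), which acts downstream of growth hormone and prolactin receptors, was counted at only 2 to 40 reads (median 15). Its log2 level ran from -2.22 to 1.91 with a median of 0.46. Nearest libraries differed in STAT5B by a median of 0.41, against 0.59 for other pairs. Its values within a set of 3 nearest libraries ranged over up to 2.10, and at these counts the libraries could not be ordered.

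SOCS2 (ENSG00000120833; chromosome 12, 93963590 to 93977263, + strand) restrains growth hormone signalling. The lowest log2 level was 2.58, the median 4.06 and the highest 4.86. The 3 lowest, 3.07, 2.58 and 3.01 (92, 65 and 106 reads), were columns 37, 38 and 39, with the next library at 3.50. SAP130, a subunit of the SIN3A histone deacetylase complex, was also lowest in those 3 libraries, at 22, 25 and 31 reads against a median of 703. The same libraries were among the 9 with low STAT6 and held STAT3 at 7.26 or more. SOCS2-AS1 covers 4.28% of the SOCS2 exons from the other strand, and whether reads were counted by strand is not given in the sources used here.

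SOCS3 (ENSG00000184557; chromosome 17, 76352859 to 76356158, - strand) binds gp130 and JAK kinases and is a classical STAT3 target. Its log2 level spanned 3.22 to 5.10 with a median of 4.09, over 88 to 382 reads. It was highest in columns 10, 11 and 12, at 5.10, 5.06 and 5.05 (364, 344 and 382 reads), a set of mutual nearest libraries that is not the lowest 3 in any of the 11 siRNA targets with a row. The 3 JAK2-low libraries came next, at 4.68, 4.63 and 4.75. In columns 28, 29 and 30, where STAT3 was highest, SOCS3 stood at 3.28, 3.22 and 3.58, below its median in each.

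**Figure D3:**
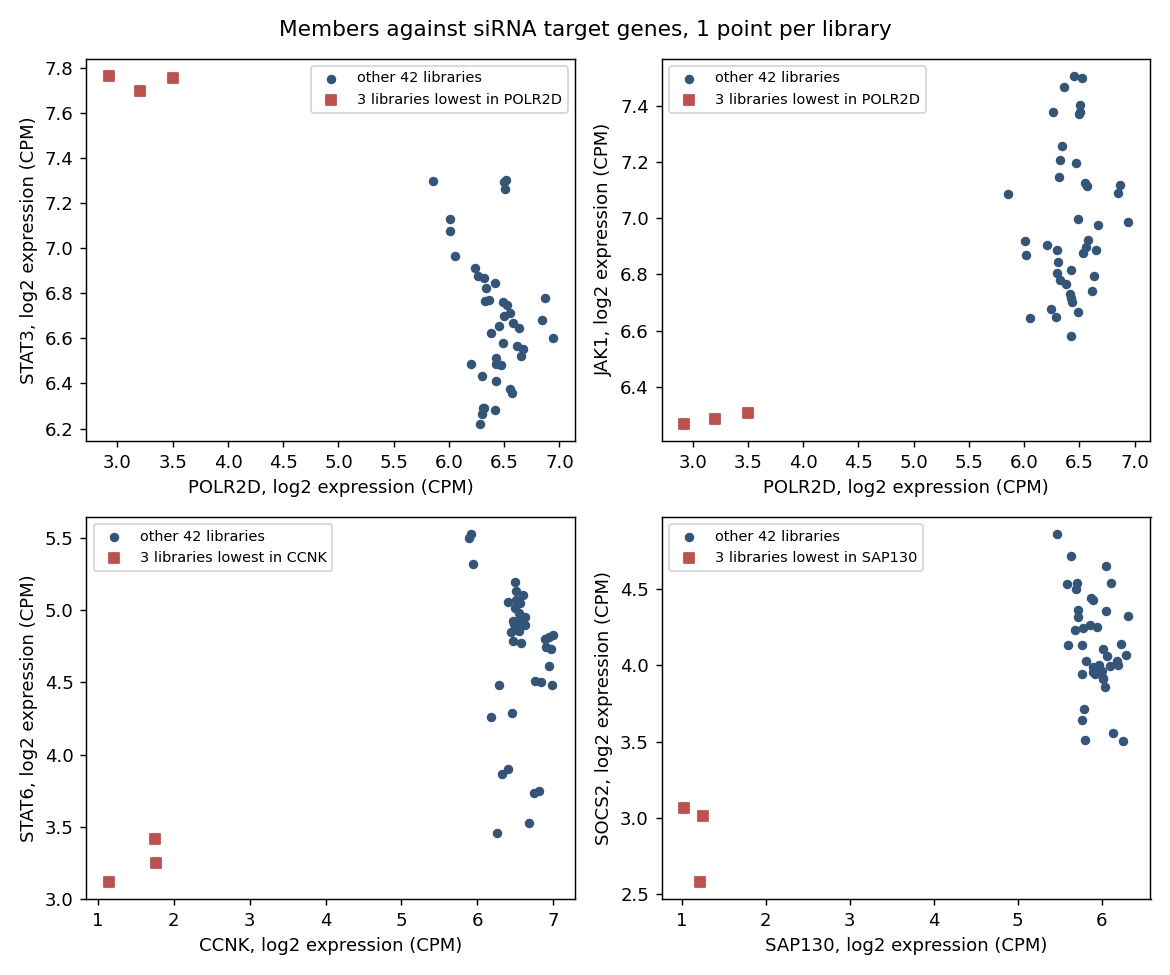
The log2 CPM of STAT3, JAK1, STAT6 and SOCS2 (vertical axes) is plotted against that of POLR2D, CCNK or SAP130 (horizontal axes), with 1 point per library. The pairs were chosen because the 3 libraries lowest in the siRNA target (red squares) are the extreme 3 of the other gene. Their place at 1 end of each panel was therefore fixed by the choice. STAT3 is at its top there and JAK1, STAT6 and SOCS2 are at their bottom. The pair of CCNK and JAK2, with JAK2 highest in columns 4, 5 and 6, met the same condition and is not plotted.

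In all, 4 of the 9 genes had 3 lowest libraries that were each other's nearest (JAK1, JAK2, STAT6 and SOCS2), and 4 had such a set as their 3 highest (JAK2, STAT3, STAT6 and SOCS3). The nearest libraries had been found without these genes. Over all 15698 genes the shares were 34.7% for the lowest and 32.9% for the highest 3 libraries, and nothing particular to the 9 genes is drawn from their counts. For JAK1, STAT3, TYK2, STAT6 and SOCS3 the median difference between nearest libraries was 0.07 to 0.12, against 0.31 to 0.49 for other pairs. For JAK2, SOCS2, STAT2 and STAT5B it was 0.16, 0.24, 0.29 and 0.41, against 0.37, 0.39, 0.43 and 0.59. Nearest libraries were chosen as the most alike over other genes, and no such figure over all genes is given. Among the libraries lowest in POLR2D, 1 of 3 was listed as siPOLR2D, and of those lowest in CCNK and SAP130 none was listed under that siRNA. Columns 28 to 30, 4 to 6 and 37 to 39 were lowest in the siRNA target by a wide margin, the next library in line having a log2 level of 5.85 for POLR2D, 5.90 for CCNK and 5.47 for SAP130.

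The comparison by listed names asks whether any of the 9 genes differed between the 3 libraries listed under an siRNA and the 3 listed as mock. JAK2 was taken first, as it is itself a target. The libraries listed as siJAK2 held 129, 112 and 136 JAK2 reads, a log2 level of 3.47 ± 0.17 (SD, n = 3), and those listed as mock held 101, 76 and 82 reads, a log2 level of 2.88 ± 0.29 (SD, n = 3). The listed siJAK2 libraries all lay above the listed mock libraries, without overlap. The log2 fold change was 0.59 with a standard error of 0.94 (limma, Benjamini-Hochberg adjusted p = 0.9999), which did not pass the test. This standard error pools the spread within all listed groups, among them those that hold columns 19, 20 and 21. Fitted on the 6 libraries listed as siJAK2 or mock alone, it was 0.27. The unadjusted p was then 0.055 and the adjusted p again 0.9999 (limma).

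Over the 14 such comparisons limma called 0 of the 9 genes at an adjusted p under 0.05 and a log2 change of at least 1, beside 0% of the 15695 genes tested in each comparison. At an unadjusted p under 0.05 there were 6 of 126 tests for the 9 genes (4.76%) and 10392 of 219730 for all genes (4.73%). Weights from the recovered whole reads (voom) also called 0, with 6 tests of the 9 genes at an unadjusted p under 0.05. The lowest adjusted p for any of the 9 was 0.432, for SOCS2 (limma, Benjamini-Hochberg). Its log2 fold change was lowest for the libraries listed as siTOX4, at -1.06 with a standard error of 0.28. Those include column 38, the lowest of all in SOCS2 at 2.58, beside columns 32 and 44 at 3.51 and 3.56. For JAK1, TYK2, STAT3 and SOCS3 every fold change lay between -0.48 and 0.32. JAK2 was lowest for the libraries listed as siCCNK, at -1.40 with a standard error of 0.94, and those include column 19, which held 3 JAK2 reads. STAT2 and STAT5B had positive fold changes in 14 of 14 comparisons, all of which share the same 3 listed mock libraries. Without the library listed as mock replicate 2, limma called 3 genes over all comparisons, and it called 1 without siBEGAIN replicate 3 and 1 without siTOX4 replicate 3, none of them among the 9. Since the listed names did not follow the siRNA targets, these tests say nothing about the effect of any siRNA.

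**Figure D4:**
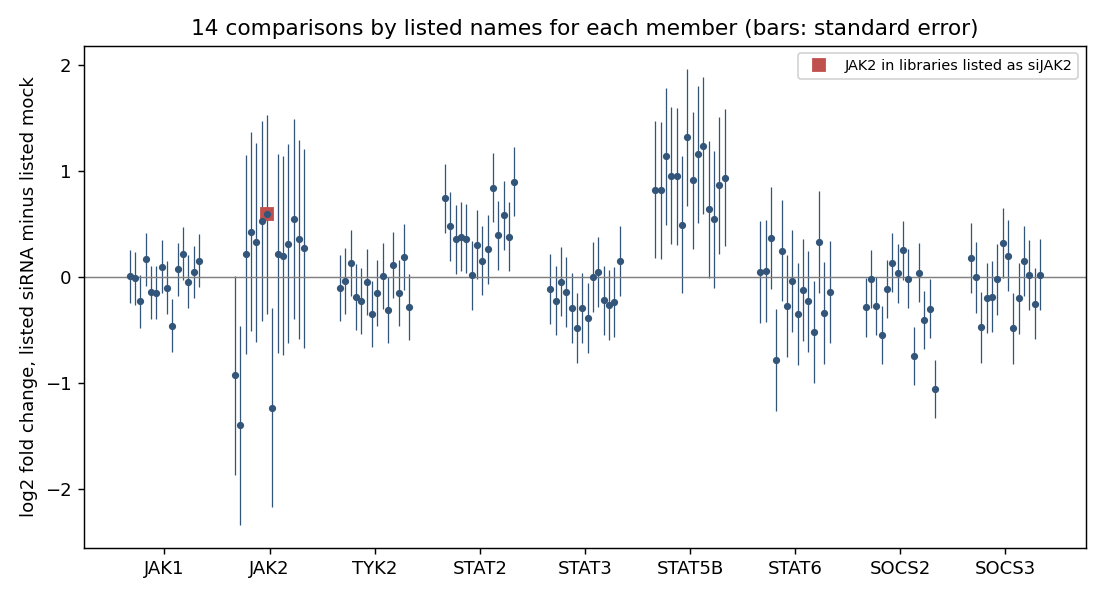
Each point is the log2 fold change of 1 gene between the 3 libraries listed under an siRNA and the 3 listed as mock (vertical axis), with its standard error, for the 14 siRNAs in alphabetical order within each gene. None of the 126 values passed the test, and JAK2 in the libraries listed as siJAK2 (red square) stands at 0.59.

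The genes whose pattern over the 45 libraries was most like that of each of the 9 were found by Pearson correlation among 13654 genes. The libraries fall into sets of 3 and are not independent points, so no p is given. Among the genes closest to JAK2 were IPO9, a nuclear import receptor (r = 0.94), and UBR4, a ubiquitin ligase (0.88). Without the 3 libraries farthest from the JAK2 median these values were 0.37 and 0.39, so the likeness rested on columns 19, 20 and 21. IPO9 stood there at log2 levels of 4.28, 4.29 and 4.79, with the next library at 6.94.

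Closest to the other kinases were MYOF (0.82), AP1AR (0.82) and SRP72 (0.81) for JAK1, and SYTL1 (0.84), FBXL6 (0.81) and PYM1 (0.80) for TYK2. Among the STATs, the genes closest to STAT3 included ANKRD42 (0.81) and ATP6V1D (0.80), and STAT6 was most like RAB29 (0.87), C1RL (0.85) and ALDH3B1 (0.85). The weakly counted STAT2 and STAT5B were most like EIF2AK4 (0.77), EZH1 (0.75) and WDR59 (0.75), and CEP250 (0.76), SH3PXD2B (0.70) and KIF24 (0.69), in that order. SOCS2 was most like B3GALNT1 (0.84), RFTN1 (0.81) and CENPV (0.80), and the genes closest to SOCS3 included CLMN (0.80) and SNX6 (0.80). Without the 3 libraries farthest from the SOCS2 median, B3GALNT1, RFTN1 and CENPV stood at 0.69, 0.60 and 0.67. All 3 were lowest in columns 37, 38 and 39. The same step took ATP6V1D to 0.60 for STAT3 and SH3PXD2B to 0.54 for STAT5B. It left ALDH3B1 at 0.88 for STAT6 and SNX6 at 0.82 for SOCS3.

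A list of 75 other genes of the pathway was read beside the 9, of which 59 had a row. By role these were 5 of 13 ligands, 19 of 23 receptors, 3 of 5 further kinases and STATs, 14 of 15 negative regulators and 18 of 19 target genes. IL6, IL4, IFNG, STAT5A and IRF9 were among the 16 without a row. None of the 59 passed the test by listed names in any comparison (limma), with 50 of 826 tests (6.05%) at an unadjusted p under 0.05, beside 4.73% for all genes. Their median standard deviation was 0.44, beside 0.40 for all genes. The 3 lowest libraries were mutual nearest for 24 of the 59 and the 3 highest for 22, beside 34.7% and 32.9% of all genes.

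The 5 most variable genes of the list were all scarce. The cytokine IL11 had 0 to 20 reads (median 6) and IL15 had 1 to 28 (median 7). IL20RA, a receptor chain for IL-20, had 3 to 79 reads (median 25), and STAT4 had 1 to 36 (median 6). SOCS1, which inhibits JAK kinases directly, ran from 1 to 56 reads, and its highest 3 libraries were columns 28, 29 and 30, the POLR2D-low set in which STAT3 was highest and SOCS3 was below its median.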

How the data were processed

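Poly(A) RNA-seq was analysed from a single deposited table of log2 expression values for 45 libraries. Per the submitters' processing notes, CASAVA 1.8.2, TopHat 1.4.1, HTSeq and limma were used, and the authors mapped to Ensembl release 67 of GRCh37. The authors deposited log2 CPM values made with voom, with 0.5 reads added. Whole reads were recovered from these log2 values, and 100% were whole within 0.001. The 9 genes and the gene lists were chosen with earlier results of these data known.

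Of 15698 gene IDs, 15366 were paired with a symbol. Exon lengths and positions came from GENCODE release 44 on GRCh37. Libraries were assigned to columns by the study's sample list. Genes with a log2 level of at least -1 in at least 3 libraries were tested with limma 3.58.1 (R 4.3.3, 30 residual degrees of freedom, trended prior) and Benjamini-Hochberg adjustment within each comparison. The script was tested on simulated data. Nearest libraries were those with the highest uncentred correlation over genes with a standard deviation of at least 0.75. Python 3.11.15 was used for the rest. Named genes were the 9, the 3 genes most like each (some are not reported here), the 5 most variable genes of the pathway list, and siRNA targets whose 3 lowest libraries were the extreme 3 of one of the 9. Over 315 pairs of libraries with the same replicate number, deviations from the listed group means had correlations of -0.51 to 0.81 (72 over 0.1). The numbers were not taken as pairs, and since the listed groups mix unlike libraries, this check cannot show whether they pair. Alternatives were another scaling, filter, weighting, fit, likeness measure and leaving out each library.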

Additional observations from a re-analysis of the deposited data

How the results depend on the processing

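By listed names, 0 of the 9 genes were called under any of 54 alternatives. The JAK2 log2 fold change in libraries listed as siJAK2 stayed between 0.46 and 0.75, and no alternative carried it past the test. With the replicate block it was 0.59 (standard error 0.97) and 0 genes were called, so the block changed no call. Leaving out 1 library at a time gave 0 to 3 genes called over all comparisons, with 3 without mock replicate 2 and 1 each without siBEGAIN replicate 3 and siTOX4 replicate 3. The number of genes whose extreme 3 libraries were mutual nearest was 3 to 5 at either end. With each library centred on its median it was 3 for the lowest and 5 for the highest, and this centring moved a library by at most 0.117. The median STAT5B level was 1.24 as log2(CPM + 1), a scale on which the added 1 raises low values. Depth limits STAT5B, SOCS1, STAT4, IL11 and IL15, whose medians were 15 reads or fewer. Groups of 3 libraries are too small for a check of single outlying samples.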

Other observations

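Several further genes of the pathway list had extreme libraries that were mutual nearest libraries, and those given here were chosen after their values were seen. IL6R, the IL-6 receptor chain, had a median log2 level of 2.60 and reached 4.37, with its 3 highest libraries in columns 31, 32 and 33. IL15 and STAT4 were highest in the same 3, which are also the libraries lowest in PSMD13, a proteasome subunit.

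In columns 28, 29 and 30, where POLR2D and JAK1 were lowest and STAT3 and SOCS1 highest, the cell cycle inhibitor CDKN1A also had its 3 highest values, up to 6731 reads against a median of 1681 over all libraries. MYC had its 3 lowest values there, down to 7.83 against a median of 8.69, and its 3 highest in columns 37, 38 and 39, the libraries lowest in SAP130 and SOCS2.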
